A study of Ovis aries with 6 samples.

Results

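Small proline-rich proteins and stratifin were described here in the body side skin of 2 sheep breeds, at 4 probes of a single-colour expression array that carried 15008 probes. The members were chosen by name and by their measured difference between the breeds, and they comprise LOC443313 (probes A_70_P051051 and A_70_P051052), the probe A_70_P068186, and SFN (probe A_70_P039451). The reference annotation used for names pairs the accessions of LOC443313 and SFN with those genes. The accession of A_70_P068186 was not in that annotation, and only the study's supplementary list describes it as a type II small proline-rich protein, so it is called by its probe name. The skin came from 3 small tail Han sheep and 3 Aohan fine wool sheep, all 12 months old, untreated and reared in pens. Each breed was represented by 1 ram and 2 ewes that shared a single sire, so each breed stands for 1 family, and the sex of each sheep was not given. Full-thickness skin of epidermis and dermis was used, in which a lower share of one cell type and less RNA per cell cannot be told apart.

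Small proline-rich proteins are short, proline-rich precursors of the cornified envelope, the crosslinked protein shell that replaces the plasma membrane of dying keratinocytes at the skin surface. Transglutaminases join them to loricrin, involucrin and other envelope proteins, and their genes lie together with those of filaggrin, the late cornified envelope proteins and the S100 proteins in the epidermal differentiation complex. They are known to rise in stressed or wounded epithelia. Stratifin, encoded by SFN, is the epithelial member of the 14-3-3 family (14-3-3 sigma), a set of adaptor proteins that bind phosphorylated partners, and it is known to hold cells at the G2 checkpoint and to act in keratinocyte differentiation.

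All signals are given as log2 of the processed signal minus the 75th percentile of the same array, so that 0 is the 75th percentile. A change is the Aohan mean minus the small tail Han mean on that scale, with the standard error (SE) of a linear model fitted over 12481 tested probes. Because the difference between the breeds was used to choose the members, it is described without a test. The 75th percentile itself ranged from 1103 to 2309 intensity units, between 10777 and 13421 probes per array were well above background, and no spot was saturated. The arrays of each breed shared a scan date that the other breed did not, so scan date and breed cannot be told apart. All 4 member probes were well above background on all 6 arrays.

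LOC443313 was far higher in Aohan skin at both of its probes. At A_70_P051051 the small tail Han sheep read -0.01, -0.47 and -1.02 in replicates 1, 2 and 3, and the Aohan sheep read 4.76, 5.09 and 4.48. The lowest Aohan sheep was 4.50 above the highest small tail Han sheep on the log2 scale, a gap several times the range of 1.00 within the small tail Han sheep. The means were -0.50 ± 0.50 and 4.78 ± 0.30 (SD, n = 3 per breed), a log2 change of 5.28 (SE 0.26) or 38.8-fold. At A_70_P051052 the small tail Han sheep read -0.19, -0.18 and -0.24 and the Aohan sheep 4.12, 4.71 and 4.11. The small tail Han sheep lay within 0.06 of each other here, with a mean of -0.20 ± 0.03 against 4.32 ± 0.34 in Aohan (SD, n = 3 per breed). That is a log2 change of 4.52 (SE 0.19), or 22.9-fold.

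The type II probe A_70_P068186 separated the breeds in the same direction. The small tail Han sheep read -0.43, -1.30 and -1.22 and the Aohan sheep 4.15, 5.01 and 4.44, which left a gap of 4.58 between the breeds. The means were -0.98 ± 0.48 and 4.53 ± 0.44 (SD, n = 3 per breed), and the log2 change was 5.52 (SE 0.28), or 45.8-fold. Ordered from the most positive change, the 3 small proline-rich probes stood 3rd (A_70_P068186), 4th (A_70_P051051) and 8th (A_70_P051052) of the 12481 tested probes, of which 19 were more than 10-fold higher in Aohan. In all, 2220 tested probes (17.8%) had every Aohan sheep above every small tail Han sheep, as 3 of the 4 member probes did. Since the members were chosen on this contrast, nothing is read from that count.

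SFN gave another picture. The small tail Han sheep read 7.62, 7.80 and 7.95 and the Aohan sheep 7.99, 7.41 and 8.20. The breeds overlapped, with both the lowest and the highest value in Aohan sheep. The means were 7.79 ± 0.17 and 7.86 ± 0.41 (SD, n = 3 per breed), a log2 change of 0.07 (SE 0.29), or 1.05-fold, at rank 5703 of 12481. The sign of this change depended on the scaling between arrays. Before scaling, the small tail Han sheep had SFN intensities of 452924, 408757 and 432297 and the Aohan sheep 279745, 347280 and 331688, so that every Aohan sheep was below every small tail Han sheep. Without scaling the log2 change was -0.44, beside a median of -0.49 over all tested probes, and the 75th percentile brought both close to 0.

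**Figure D1:**
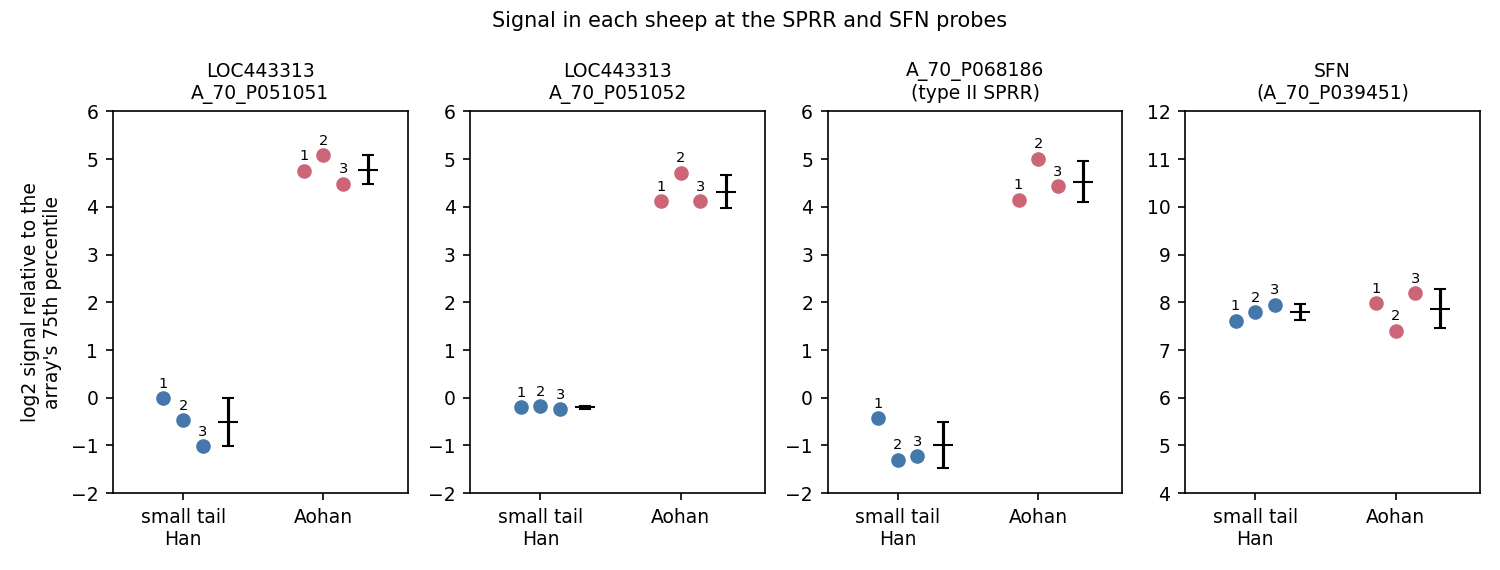
Signal in each sheep at the 4 probes, as log2 relative to the 75th percentile of the array, with dots numbered by replicate (blue, small tail Han; red, Aohan) and bars for the mean ± SD of 3 sheep. The SFN panel has its own axis range of the same length. The breeds are apart by 4.29 to 4.58 at the 3 small proline-rich probes and overlap at SFN.

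Within the breeds, the 3 small proline-rich probes shared part of their variation. Aohan replicate 2 was the highest Aohan sheep at all 3 of them, by 0.31, 0.40 and 0.48 above the breed mean at A_70_P051051, A_70_P051052 and A_70_P068186. The same sheep was the lowest at SFN, 0.46 below its breed mean, but only after scaling. Its SFN intensity before scaling was the highest of the Aohan sheep (347280 against 279745 and 331688). The 75th percentile of its array was also the highest of the Aohan arrays (2048 against 1103 and 1131). Among the small tail Han sheep, replicate 1 was the highest at A_70_P051051 and A_70_P068186, by 0.49 and 0.55 above the breed mean, while A_70_P051052 deviated by no more than 0.04 in any of them. These 3 probes may read the same or related transcripts, since sequences of near-identical family members can cross-hybridise, and this was not tested because no probe sequence was used here. The 2 probes of LOC443313 differed by 0.76 in their log2 change, and A_70_P051052 and A_70_P068186 by 1.00.

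The scanner software's own corrections moved the 2 LOC443313 probes apart. The software multiplies each spot by a factor for its place on the slide, which was 1 on the arrays of small tail Han replicates 2 and 3. On the other 4 arrays it ranged from 1.38 to 1.64 at A_70_P051051, from 1.22 to 1.87 at A_70_P068186 and from 0.78 to 0.90 at A_70_P051052. Small tail Han replicate 1, the highest of its breed at A_70_P051051 and A_70_P068186, had factors of 1.38 and 1.37 there and 0.90 at A_70_P051052. The part of this factor in the variation that the probes shared within a breed was not tested. In signals taken before this step the log2 changes were 4.87 at A_70_P051051, 4.74 at A_70_P051052 and 5.19 at A_70_P068186, so that the LOC443313 probes lay closer together, and SFN turned to -0.11. Bright spots were read in a second scan at lower detector gain and scaled up. SFN was read that way on all 6 arrays. No small proline-rich probe was read that way in a small tail Han sheep, while all 3 were in Aohan replicate 2, A_70_P051052 was in each Aohan sheep and A_70_P068186 also in Aohan replicate 3. At A_70_P051051, the 2 Aohan arrays read in the ordinary scan had intensities of 29787 and 25290 against 862 to 2286 in the small tail Han sheep. Without Aohan replicate 2, the sheep read at low gain, the log2 change at A_70_P051051 was 5.12. For SFN, the 662 probes read at low gain on every array had a median log2 change of -0.07, beside 0.07 at SFN itself.

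**Figure D2:**
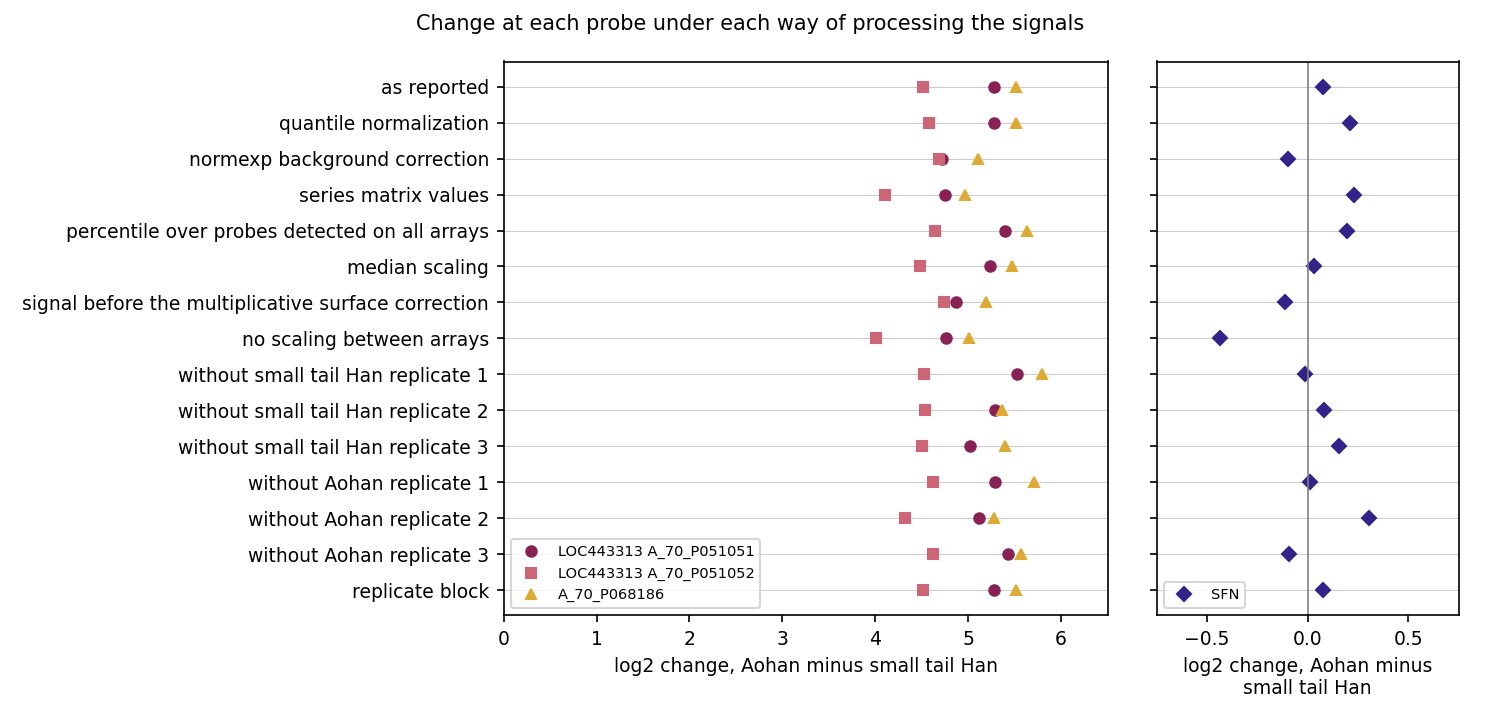
Log2 change (Aohan minus small tail Han) at each member probe under each way of processing, with the small proline-rich probes at left and SFN at right on a narrower axis. The small proline-rich probes stay between 4.01 and 5.79 throughout, while SFN crosses 0, from -0.44 to 0.30.

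Of the nearest 50 annotated genes on each side of LOC443313, in the order of the reference assembly ARS-UI_Ramb_v3.0, 1 other gene was found on the array by its accession. The array files name no genome build, so the assembly served only for names and gene order. The genes in this range include FLG (filaggrin), IVL (involucrin), SPRR4 and LORICRIN, all structural proteins of the cornified layer. None of these lies between LOC443313 and its neighbour on the array. That neighbour is PRD-SPRRII, by its symbol another small proline-rich protein gene, 14 genes from LOC443313. At its probe A_70_P051386 the small tail Han sheep read -2.82, -2.42 and -2.97 and the Aohan sheep -3.43, -3.41 and -2.97. The values of the breeds met at their edge, and the log2 change was -0.53 (SE 0.22, limma adjusted p = 0.147). At its other probe, A_70_P051387, the small tail Han sheep read -2.97, -2.69 and -2.24 and the Aohan sheep -2.09, -2.72 and -2.32. The log2 change was 0.25 (SE 0.24, limma adjusted p = 0.539), opposite in sign, and neither PRD-SPRRII probe passed the test. The difference in change between PRD-SPRRII and LOC443313 was not tested, since LOC443313 was chosen on its own change.

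**Figure D3:**
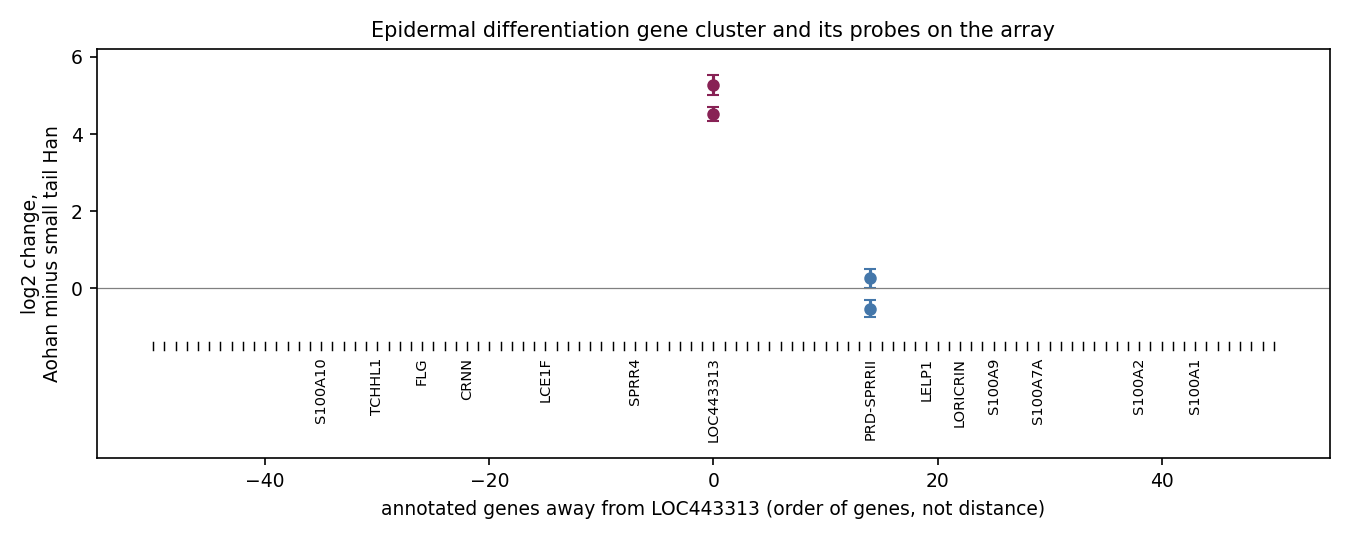
Log2 change (Aohan minus small tail Han, bars ± SE of the fit) for genes on the array within 50 annotated genes of LOC443313, against the number of genes away. Ticks mark annotated genes, with selected symbols. LOC443313 is at 5.28 and 4.52, and the PRD-SPRRII probes are at 0.25 and -0.53.

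The other genes of the cornified envelope and of stratifin's partners that could be read on this array were few, and most did not pass the test. Of 204 genes listed in 8 pathway lists, 15 besides the members were on the array by name and 14 were tested, of which 2 (CDK1 and TFAP2A) were higher in Aohan sheep and 0 lower by limma at an adjusted p under 0.05. Over all tested probes 945 (7.57%) were higher and 948 (7.6%) lower, and the median log2 change of the 14 genes was 0.09, beside 0.02 over all tested probes. At an unadjusted p under 0.05, 3 of the 14 were higher and 1 lower, beside 15.2% and 14.2% of all tested probes. By the methods' t-test after adjustment, 2 of the 14 were higher and 0 lower, beside 321 and 391 of the 12481 tested probes.

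In the cornified envelope list, PI3 (elafin, a protease inhibitor that is itself crosslinked into the envelope) had a log2 change of -0.65 (limma adjusted p = 0.155). SLPI, a related inhibitor, had a change of 0.27 (limma adjusted p = 0.727). Loricrin, involucrin, filaggrin, the transglutaminases, the S100 proteins, the other 14-3-3 genes and the keratins of the interfollicular and basal epidermis were not matched to a probe by name, so the members could not be set beside them. Of 3 tested regulators of keratinocyte differentiation, TFAP2A (the transcription factor AP-2 alpha) rose by 0.76 (SE 0.14, limma adjusted p = 0.00950), while its other probe had a change of 0.17 (adjusted p = 0.510). IRF1 had a change of 0.05 (adjusted p = 0.937). FOS was above background on 2 of 6 arrays and was not tested.

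Of 6 tested genes among 14-3-3 partners and cell cycle control, CDK1, the mitotic kinase whose activity stratifin is known to restrain, rose by 0.73 (SE 0.15, limma adjusted p = 0.0147). This call was lost in 6 of 15 alternatives, among them the signal before surface correction and leaving out small tail Han replicate 2 or 3 or Aohan replicate 3, with adjusted p-values of 0.0533 to 0.192. BCL2L1, a survival factor, had a change of 0.98 (adjusted p = 0.119) and CDK2 one of -0.41 (adjusted p = 0.288). GJB2 (connexin 26, a gap junction protein) had a change of 0.37 at its brightest probe (adjusted p = 0.300) and passed at 1 of its other probes (0.80, adjusted p = 0.0231). The barrier lipid genes SMPD1 and FABP5 had changes of -0.19 (adjusted p = 0.724) and 0.11 (adjusted p = 0.787).

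**Figure D4:**
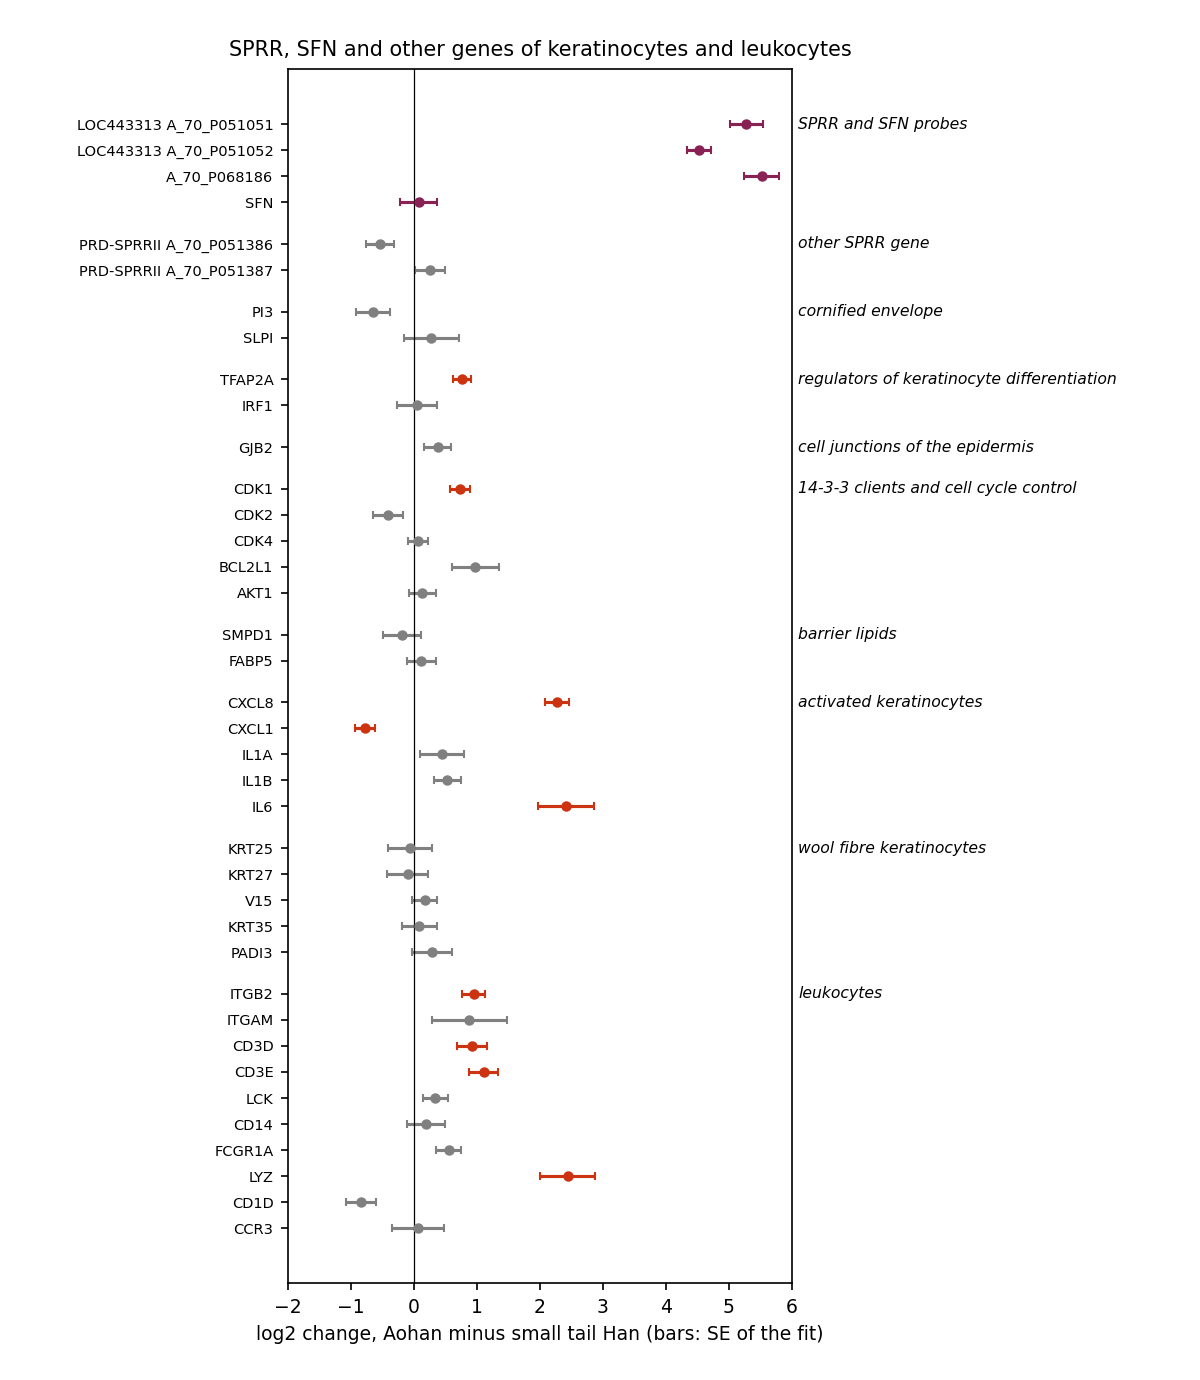
Log2 change (Aohan minus small tail Han, bars ± SE of the fit) for the members (purple, not tested) and for genes of the pathway lists and of the activated keratinocyte, wool fibre and leukocyte markers, some genes left out, 1 probe per gene except PRD-SPRRII; red marks an adjusted p under 0.05 by limma and grey the rest. LOC443313 and A_70_P068186 lie from 4.52 to 5.52, and the red genes drawn from -0.78 to 2.44.

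Likeness of pattern was measured as the root mean square (RMS) difference in log2 signal over the 6 arrays, after each probe's own mean was taken off, among 12406 probes. The 2 LOC443313 probes differed from each other by 0.48, and their mean differed from A_70_P068186 by 0.39 and from SFN by 2.46. Nearest to the LOC443313 mean were A_70_P010201, which has no name here (RMS difference 0.19, log2 change 4.56), and A_70_P026356 (0.28, log2 change 4.84), described in the study's supplementary list as an immunoglobulin light chain. The nearest probe with a gene symbol was A_70_P039661 of CXCL8, the neutrophil-attracting chemokine interleukin 8 (0.48, log2 change 4.23), which was above background on 5 of 6 arrays. The next named ones were the milk protein gene CSN2 at its dimmer probe A_70_P039416 (1.07), LTF, the iron-binding antimicrobial lactoferrin (1.14), and LYZ, lysozyme (1.31). CXCL8 was also the nearest named gene to A_70_P068186 (0.72), followed by CSN2, LTF, LYZ and IL6. At CXCL8 (both probes), LTF, LYZ, A_70_P010201, A_70_P026356 and A_70_P024446, as at the small proline-rich probes, Aohan replicate 2 was the highest sheep. CSN2 at A_70_P039416, above background on 4 of 6 arrays, differed from them, with Aohan replicate 2 the lowest of the Aohan sheep. The brighter CSN2 probe, A_70_P039417, was above background on all 6 arrays and did not share the rise. Its log2 change was 0.06 (SE 0.36, limma adjusted p = 0.934), against 4.86 at A_70_P039416. These likenesses are carried mostly by the breed difference itself and are given as a description.

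SFN's nearest probes were of another kind. Its profile was closest to those of the unnamed probes A_70_P000091 (RMS difference 0.03), A_70_P014676 (0.04) and A_70_P002166 (0.04). The nearest named genes were RPL10, a ribosomal protein (0.06), ATP5MC2, a subunit of the mitochondrial ATP synthase (0.08), and KRT35, a hair keratin (0.09). Each of these named genes, like SFN, had its lowest value in Aohan replicate 2.

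**Figure D5:**
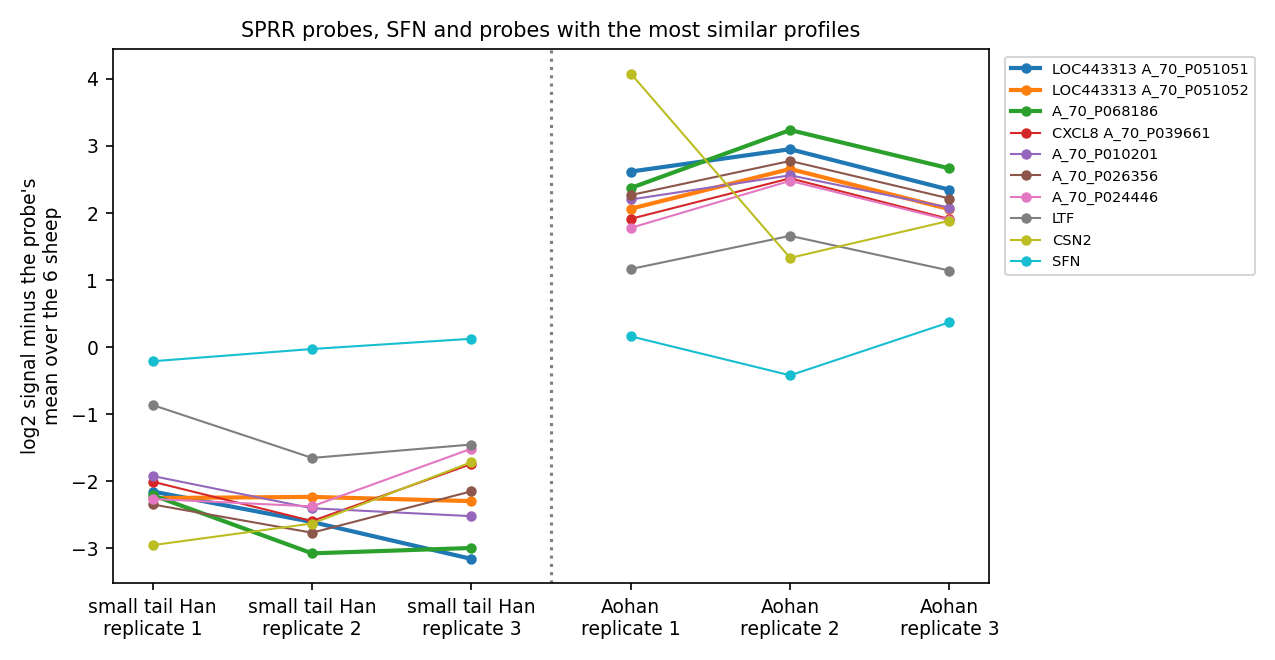
Log2 signal minus each probe's mean over the 6 sheep, for the 4 member probes and 6 probes listed as like LOC443313; lines only join values of the same probe. All but SFN are below 0 in the small tail Han sheep and above 0 in the Aohan sheep, with Aohan replicate 2 highest except at CSN2, where it is the lowest Aohan sheep. CSN2 is drawn at its dimmer probe only.

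Markers of other cells in full-thickness skin moved beside the small proline-rich genes in part. The shares of all tested probes called by limma were 7.57% higher and 7.6% lower, for this and the other marker lists. Of 10 tested leukocyte markers, ITGB2, CD3D, CD3E and LYZ were higher in Aohan sheep and 0 lower by limma at the brightest probe of each gene. At an unadjusted p under 0.05, 5 of the 10 were higher and 1 lower, beside 15.2% and 14.2% of all tested probes. The median log2 change of the 10 markers was 0.71. At their dimmer probes, CD1D (-1.36, limma adjusted p = 0.00138) and CCR3 (-0.89, limma adjusted p = 0.0327) were lower. None of the 4 passed by the methods' t-test. Without small tail Han replicate 2 the adjusted p of ITGB2 became 0.0563 and that of CD3E 0.0638, and CD3D passed in 7 of 15 alternatives and lost its call without small tail Han replicate 1 or 2 or any single Aohan sheep (adjusted p of 0.0592 to 0.118). The leukocyte markers summed to 9.95 to 11.2 times the array's 75th percentile in Aohan sheep and to 4.93 to 8.81 times in small tail Han sheep, and CD4 was above background on no more than 1 of 6 arrays. CD3E, the brightest of these markers, had mean log2 signals of 2.33 in Aohan and 1.23 in small tail Han sheep. Of 6 tested markers of activated keratinocytes, CXCL8 (2.27 at its brighter probe, limma adjusted p = 0.000160) and IL6 (2.41, limma adjusted p = 0.00876) were higher and CXCL1 lower (-0.78, limma adjusted p = 0.0118), and the keratins of that list were not matched to a probe. The adjusted p of CXCL1 became 0.0664 when small tail Han replicate 2 was left out and 0.0585 when replicate 3 was, and IL6 lost its call with normexp background correction (0.76, adjusted p = 0.235). By the methods' t-test CXCL8 kept its call, while IL6 and CXCL1 lost theirs. The summed level of the activated keratinocyte markers was 3.67 to 4.88 in Aohan and 3.77 to 4.18 in small tail Han sheep. Of 3 tested muscle markers, CNN1 was lower (-1.31, limma adjusted p = 0.00936), though not by the methods' t-test (adjusted p = 0.0793). TNNC2 had a change of -0.95 (limma adjusted p = 0.0688) and of -1.37 at its other probe (limma adjusted p = 0.0219). MB had a change of 0.25 (limma adjusted p = 0.572). The summed muscle levels, made up mostly of CNN1, were 14.6 to 24.4 in Aohan and 41.2 to 57.0 in small tail Han sheep. The 5 tested wool fibre genes had a median log2 change of 0.08, with sums of 523 to 918 in Aohan and 607 to 835 in small tail Han sheep that overlapped. That list also names KRT38 and KRTAP4-3, to which no probe was matched by name. K38 and KRTAP4.3, which by their symbols may be these genes, were therefore not among the 5. K38 was lower at both of its probes (-1.75 at each, limma adjusted p = 0.0214 and 0.0174). KRTAP4.3 had a change of 0.12 (limma adjusted p = 0.737). The part of these cells in the difference at LOC443313 and A_70_P068186 was not tested.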

How the data were processed

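RNA of each sheep was labelled with Cy3 and read on 1 array. The authors deposited Agilent Feature Extraction 10.5.1.1 output, whose processed signal intensity is background-subtracted and corrected for position on the slide, and a table of log2 values, normalized by the authors, used here as an alternative. The members and gene lists were chosen with earlier results of these data known. Outlier spots were dropped, spots of a probe averaged, and the 75th percentile of the non-control probes of an array subtracted on the log2 scale. Probes that at least 3 of 6 arrays measured well above background were tested with limma 3.58.1 (R 4.3.3; lmFit, eBayes with intensity trend), with Benjamini-Hochberg adjustment at 0.05, after tests on simulated data. The number of arrays limits the precision, and p-values cover the spread between sheep that share a sire. Genes were named through RefSeq accessions (734 probes, 476 symbols), with 1 probe per gene, the brightest. The genes named were all members, the 4 of smallest p in each list, all array genes of the cornified envelope, S100 and 14-3-3 lists, neighbours within 50 genes of LOC443313, and the 5 named and 3 other probes most like each member, of which the text gives the nearest. Genes and probes outside this rule (IRF1, K38, KRTAP4.3, the brighter CSN2 probe and the probes below a list's brightest) were added once their values had been seen. Some genes of the lists are not reported here. Alternatives changed the background correction, scaling, filter, trend, test, block and sheep. The signal before surface correction and the unscaled signal were chosen after seeing the data.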

Additional observations from a re-analysis of the deposited data

How the results depend on the processing

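The 3 small proline-rich probes were higher in Aohan sheep under every alternative run. At A_70_P051051 the log2 change was 4.71 with normexp, 4.75 in the authors' log2 values and 4.76 without scaling. At A_70_P051052 it was 4.10 in the authors' values and 4.01 without scaling, and at A_70_P068186 it was 4.96 and 5.004. Leaving out 1 sheep gave 5.02 to 5.52, 4.32 to 4.62 and 5.28 to 5.79 at these probes. SFN reversed to -0.10 with normexp, -0.11 before surface correction and -0.44 without scaling, and ranged from -0.092 (without Aohan replicate 3) to 0.30 (without Aohan replicate 2), with -0.01 without small tail Han replicate 1. The count of pathway genes that rose (2) was 1 with normexp, 0 before surface correction (where the other TFAP2A probe was the brighter and stood for the gene), 1 with the replicate block and 1 to 3 with 1 sheep left out (1 without small tail Han replicate 2 or 3 or Aohan replicate 3). Over all probes the higher calls (945) became 565 with the block, 321 by the methods' t-test and 340 to 1223 with 1 sheep left out, lowest without small tail Han replicate 2. Without Aohan replicate 3 they were 437, and 466 without the third small tail Han sheep. The lower calls (948) became 391 by the methods' t-test and 427 to 1015 with 1 sheep left out, with 427 and 476 without small tail Han replicates 2 and 3. Probes whose breeds did not overlap (4271) numbered 3196 with normexp and 4775 to 6360 with 1 sheep left out. Fewer sheep are more easily separated, so the rise on leaving out a sheep is built into this count. The causes of the other shifts were not tested. Deviations of same-numbered sheep correlated at -0.22, -0.37 and 0.28 for replicates 1, 2 and 3. Differently numbered sheep were not compared, so these values cannot decide whether replicate numbers pair the sheep. The fit with the block shared 1193 calls with the main fit. Signal over background did not limit the members, which were bright on all 6 arrays.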
